A study of Mus musculus with 24 samples.

Results

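A set of 10 genes of alternative macrophage activation, the chitinase-like genes among them, was followed in mice given β-nicotinamide mononucleotide (β-NMN), a precursor of NAD+. The genes are Chil1, Chil3, Chil4, Retnla, Mgl2, Il4ra, Pparg, Klf4, Trem2 and Ccl24. They were taken from the count tables by gene symbol, 10 of the 54658 symbols in each table. All mice were male C57BL/6 of 7 to 12 weeks. In the thioglycollate (TGC) experiment, 6 vehicle and 6 β-NMN mice received 1 ml of thioglycollate medium and daily saline or β-NMN (185 mg/kg), and their peritoneal lavage cells were taken on day 3, plated and incubated with E. coli for 6 h. In the cecal ligation and puncture (CLP) experiment, a model of polymicrobial sepsis, heart and lung were taken from 3 vehicle and 3 β-NMN mice 24 h after surgery. These mice had received saline or β-NMN (185 mg/kg) directly after surgery, so the organs followed a single dose. Every peritoneal sample was therefore exposed to bacteria and every organ came from an operated animal, and the plated lavage cells had not been sorted.

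As background, interleukin-4 and interleukin-13 act through receptors that contain the IL-4 receptor α chain (Il4ra), which signals through JAK kinases to the transcription factor STAT6. In macrophages this pathway turns on Retnla, Chil3, Mgl2 and Ccl24, and works with Klf4 and the nuclear receptor PPARγ (Pparg). Chil1, Chil3 and Chil4 belong to the chitinase family, but their products bind sugars without cutting chitin. Trem2 is a surface receptor for lipids and lipoproteins that signals through the adaptor Tyrobp and is found on lipid-handling macrophages.

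The feature that separates the chitinase-like genes from true chitinases lies in a short stretch of coding sequence. These 24-base windows, read from the GENCODE M21 transcripts (GRCm38), start at the same aligned codon, and the last codon, in capitals, is the position of the catalytic acid of the family.
Chia1 (chitinase, chr3:106122448-106122471, + strand): gatggactggacctggactggGAA
Chit1 (chitinase, chr1:134145334-134145357, + strand): gatggccttgaccttgactggGAG
Chil1 (chr1:134185231-134185254, + strand): gatgggctggatctcgcctggCTC
Chil3 (chr3:106160428-106160451, − strand): gatggcctcaacctggactggCAG
Chil4 (chr3:106210533-106210556, − strand): gatggcctcaacctggactggCAG
Each window lies inside 1 coding exon. The last codon encodes glutamate in both chitinases, leucine in Chil1 and glutamine in Chil3 and Chil4. Chil3 and Chil4 have the same 24 bases here, and 95.3% of their 1197 aligned coding bases are identical (56 differ). No stretch of 150 bases, the read length, is shared exactly between their longest transcripts, whereas 275 of 1490 stretches of 50 bases (18.5%) are. Chil1 is more distant, with 59.5% identity to Chil3 over 1112 aligned bases.

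A STAT-type motif was sought in the RefSeq promoter table (GRCm38.p6, 250 bases before to 50 bases after each start), which holds 11 promoters for 9 of the 10 genes. The spacing that STAT6 prefers, TTC and GAA separated by 4 bases, occurred among them in Retnla alone, and in 6.95% of the 32851 promoters of the table. The other spacing, TTC and GAA separated by 3 bases, occurred in Chil3 and Chil4 and in 8.3% of all promoters. Both patterns read the same on either strand. A PPARγ-type repeat, AGGTCA written 2 times with 1 base between and sought on either strand, was in none of the 11 and in 13 of all promoters (0.0396%). The windows below hold 50 bases before and 60 bases after the motif, which is in capitals, and are written on the strand of the gene.
Retnla (chr16:48842414-48842533, + strand): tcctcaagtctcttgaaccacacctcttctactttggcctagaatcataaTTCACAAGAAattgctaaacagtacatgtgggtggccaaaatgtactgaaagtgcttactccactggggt
Chil3 (chr3:106167668-106167786, − strand): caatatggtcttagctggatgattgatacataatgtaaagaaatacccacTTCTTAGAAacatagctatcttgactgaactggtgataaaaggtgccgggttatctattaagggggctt
Chil4 (chr3:106219611-106219729, − strand): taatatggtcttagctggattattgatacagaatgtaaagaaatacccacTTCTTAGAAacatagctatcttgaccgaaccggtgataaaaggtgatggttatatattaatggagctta
The motif begins 145 bases before the RefSeq start site in Retnla, 172 in Chil3 and 200 in Chil4. From the GENCODE gene starts, which differ from those of RefSeq for Retnla and Chil4, the distances are 87, 172 and 172 bases. The Chil3 and Chil4 windows carry the same 9-base motif and share 108 of 118 aligned bases (91.5%). These matches describe the sequence only.

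Levels are given as counts-per-million values (CPM), scaled with TMM factors within each tissue, and a gene is said to rise, fall or be called when its adjusted p in edgeR's quasi-likelihood test was below 0.05. Library totals were 31126823 to 112456050 counts in peritoneal cells, 27319513 to 68523239 in hearts and 8915366 to 28356786 in lungs. Among the CLP mice, vehicle replicate 2 stood apart in both organs. Its log2 values differed from the other libraries by an SD of 0.99 in heart, against 0.39 to 0.58 for the other hearts, and of 1.57 in lung, against 0.45 to 0.60. Its lung library was also the shallowest, and many of the values below are given also without this mouse. The tissue labels fitted their markers: cardiomyocyte genes summed to 27980 to 50040 CPM in hearts and alveolar type 2 genes to 18390 to 36650 CPM in lungs. Macrophage genes summed to 5366 to 11890 CPM in peritoneal cells.

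The first comparison asked how β-NMN given during peritonitis changed these genes in peritoneal cells after contact with bacteria. Retnla, Mgl2, Pparg and Trem2 rose, Chil1, Il4ra and Klf4 fell, and Chil3 and Ccl24 were not called. Of the 9 genes tested 7 were called, beside 51.6% of all 14985 genes, and Chil4 was too low to be tested. By direction, 4 rose, where 23.7% of all genes did, and 3 fell, where 27.9% did. The groups did not overlap for 5 of the 9, against 26.6% of all genes. Over these 9 the log2 fold changes had a median of 0.04, beside −0.02 over all genes.

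**Figure D1:**
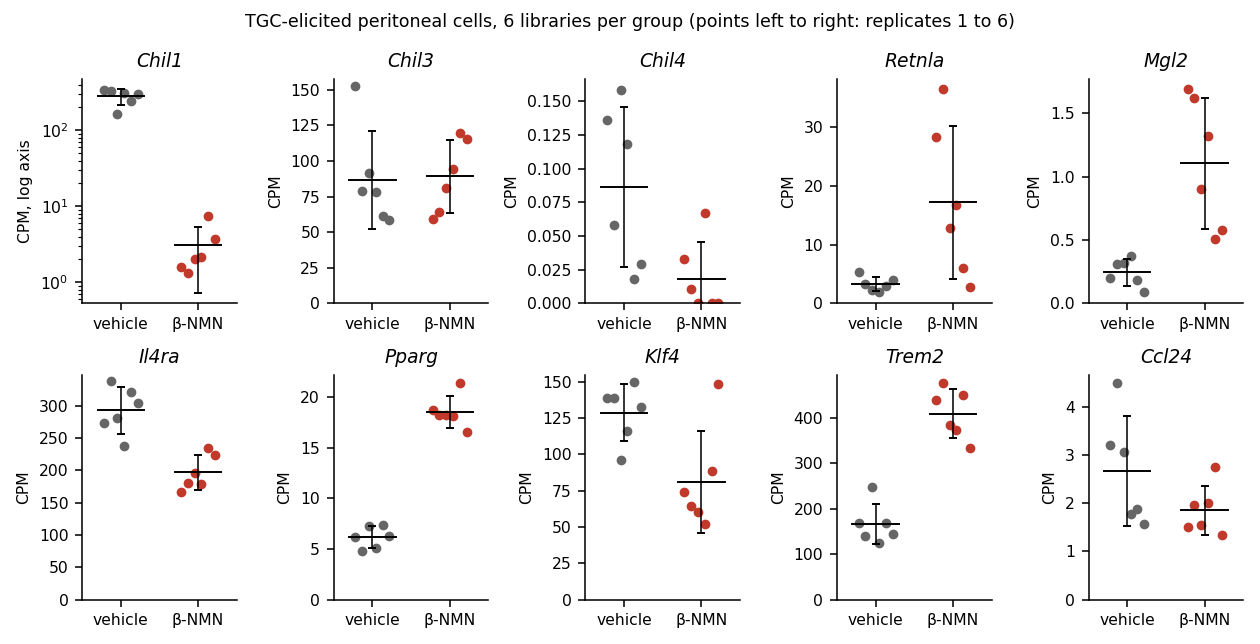
Each panel plots 1 of the 10 genes in peritoneal cells as CPM (log axis for Chil1 only), with 6 vehicle libraries in grey and 6 β-NMN libraries in red. Bars are the mean and SD. Chil1 sits near 282 CPM in vehicle and near 3.05 CPM in β-NMN cells, whereas the Chil3 groups overlap throughout.

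Among the chitinase-like genes, Chil1 fell and Chil3 was not called. Chil1 (chr1:134182176-134190181, + strand), a secreted lectin made by activated macrophages and neutrophils, ranged from 164 to 344 CPM in vehicle cells (median 306) and from 1.33 to 7.50 CPM in β-NMN cells (median 2.07). Every β-NMN library lay far below every vehicle library. Its mean fell 92.5-fold, from 282 ± 67.5 to 3.05 ± 2.33 CPM (SD, n = 6), a log2 fold change of −6.57 (SE 0.43, adjusted p = 3.57e-08, edgeR). It ranked 56th of the 14985 genes by p. Within the shallower and deeper libraries described with Retnla the log2 fold change was −6.16 and −7.54. The exact permutation test of its 12 libraries gave a two-sided p of 0.00216, the smallest that 924 divisions allow.

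Chil3 (Ym1, chr3:106147554-106167564, − strand), a secreted protein abundant in alternatively activated macrophages, ranged from 58.3 to 153 CPM in vehicle cells (median 78.6) and from 59.6 to 120 CPM in β-NMN cells (median 87.7). The ranges overlapped almost wholly. On the log2 scale the fold change was 0.04 (SE 0.23), with a 95% interval of −0.42 to 0.49 and an adjusted p of 0.906 (edgeR). Its sign turned with the libraries used, as given in the closing part. Chil4 (Ym2, chr3:106201490-106219507, − strand), the neighbouring copy, had 2 to 13 reads in vehicle libraries and 0 to 3 in β-NMN libraries. It was at 0 in 3 β-NMN libraries, where 3 reads would be 0.0698 to 0.0797 CPM. Thus the copy with 95.3% identical coding sequence stood at a mean of 0.0864 CPM in vehicle cells beside 86.8 CPM for Chil3.

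Retnla (resistin-like α, also called Fizz1, chr16:48842551-48844461, + strand) is a secreted protein induced by IL-4. The vehicle libraries, in replicate order, held 5.39, 3.38, 2.22, 2.02, 3.02 and 3.94 CPM. The β-NMN libraries held 28.3, 36.5, 12.8, 16.7, 6.02 and 2.84 CPM. In all, 5 of the 6 β-NMN libraries lay above every vehicle library, and replicate 6 lay among them. The mean rose 5.16-fold, from 3.33 ± 1.24 to 17.2 ± 13.0 CPM (SD, n = 6), with a log2 fold change of 2.39 (SE 0.49, adjusted p = 0.000858, edgeR) and an exact permutation p of 0.0152.

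The Retnla response, like those of Chil1, Mgl2, Trem2, Il4ra and Klf4 but not Pparg, had a larger estimate in the deeper libraries. There were 7 libraries (3 vehicle, 4 β-NMN) with 31126823 to 53319385 counts and 5 (3 vehicle, 2 β-NMN) with 90571560 to 112456050. Within the shallower class the log2 fold change was 1.43 (SE 0.54) and no longer passed the test (adjusted p = 0.0737), and within the deeper class it was 3.50 (SE 0.28, adjusted p = 0.000576). The sources used here do not say whether the depth classes mark separate runs, and the difference between them was not tested. The summed eosinophil list moved with Retnla within the β-NMN group, as did the summed B cell list. The 5 eosinophil genes summed to 45.4, 63.4, 39.1, 51.6, 25.7 and 15.1 CPM in β-NMN replicates 1 to 6 and to 8.91 to 37.4 CPM in vehicle libraries, with overlapping groups. The B cell genes summed to 79, 86, 43, 48, 47 and 24 CPM in β-NMN replicates 1 to 6 and to 32 to 166 CPM in vehicle libraries, also overlapping. Of the 2 eosinophil genes that could be tested, Ccr3 rose and Il5ra was not called (log2 fold change −0.14, adjusted p = 0.757, edgeR). Epx, Prg2 and Ear6, which define the eosinophil lineage, were too low to be tested. The part of either cell type in the Retnla values was not tested. In these bulk samples, fewer cells of a type and less RNA per cell cannot be told apart.

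Mgl2 (CD301b, chr11:70130329-70137550, + strand), a C-type lectin that binds galactose sugars on dendritic cells and macrophages, was low but rose. It ranged from 0.0881 to 0.373 CPM in vehicle cells (median 0.258) and from 0.510 to 1.69 CPM in β-NMN cells (median 1.11). The groups did not overlap, and the log2 fold change was 2.19 (SE 0.39, adjusted p = 0.000297, edgeR). It was 1.58 within the shallower and 3.0 within the deeper libraries, both called. These values rest on 6 to 41 reads per vehicle library and 20 to 154 per β-NMN library. Its coding sequence is 88.6% identical to that of Clec10a, and 34 of 1486 stretches of 150 bases are shared, so the assignment of some reads is uncertain. Clec10a itself rose from 5.12 to 9.50 CPM without overlap (log2 fold change 0.90, adjusted p = 0.00012, edgeR). The list of dendritic cell markers went the other way, from 170 to 208 CPM in vehicle to 38.3 to 52.4 CPM in β-NMN cells, and 4 of its 5 genes fell. Ccr7 made up most of the vehicle sum, and the fifth gene, Cd209a, rose (log2 fold change 1.09, adjusted p = 0.0091, edgeR).

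Il4ra (chr7:125552120-125579474, + strand), the receptor chain itself, fell modestly. It ranged from 238 to 339 CPM in vehicle cells (median 293) and from 167 to 234 CPM in β-NMN cells (median 188). The lowest vehicle library stood just above the highest β-NMN library. Its log2 fold change was −0.57 (SE 0.11, adjusted p = 0.000468, edgeR), a 1.49-fold lower mean, and it was −0.49 within the shallower and −0.66 within the deeper libraries. An antisense gene, Gm44876, overlaps Il4ra over 1342 bases, and the sources used here do not give the strand setting of the counts.

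Pparg (chr6:115360951-115490399, + strand), a lipid-activated nuclear receptor, and Trem2 (chr17:48346401-48354147, + strand) rose without overlap. Pparg ranged from 4.80 to 7.39 CPM in vehicle cells (median 6.21) and from 16.5 to 21.3 CPM in β-NMN cells (median 18.2). Its mean rose 3.01-fold with little spread in either group, a log2 fold change of 1.59 (SE 0.12, adjusted p = 1.23e-07, edgeR). Trem2 ranged from 125 to 248 CPM in vehicle cells (median 157) and from 335 to 477 CPM in β-NMN cells (median 412). The highest vehicle library, replicate 3, remained below the lowest β-NMN library. Trem2 had a log2 fold change of 1.30 (SE 0.15, adjusted p = 6.34e-06, edgeR), or 2.47-fold in the means. Within the shallower and deeper libraries the log2 fold changes were 1.65 and 1.63 for Pparg and 1.08 and 1.71 for Trem2, both called in each class. An antisense gene, Gm44079, lies across part of the Pparg locus.

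Klf4 (chr4:55527143-55532466, − strand), a zinc-finger factor that cooperates with STAT6, fell, and 5 of 6 β-NMN libraries lay below every vehicle library. It ranged from 96.0 to 150 CPM in vehicle cells (median 136) and from 52.2 to 148 CPM in β-NMN cells (median 69.2). The exception was β-NMN replicate 6, at 148 CPM, which also had the least Retnla of the β-NMN group. Klf4 had a log2 fold change of −0.67 (SE 0.21, adjusted p = 0.0165, edgeR). It was −0.49 (adjusted p = 0.277) within the shallower libraries and −0.88 (adjusted p = 0.0066) within the deeper ones. Ccl24 (eotaxin-2, chr5:135569937-135573049, − strand), a chemokine that attracts eosinophils through the receptor Ccr3, ranged from 1.57 to 4.51 CPM in vehicle and from 1.35 to 2.75 CPM in β-NMN cells. Its groups overlapped, and its log2 fold change of −0.51 (SE 0.27) gave an adjusted p of 0.122 (edgeR). This change was −0.89 (adjusted p = 0.04) within the shallower libraries and 0.07 (adjusted p = 0.846) within the deeper ones.

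Cell type markers changed alongside these genes. Macrophage genes summed to 5366 to 8225 CPM in vehicle and 10350 to 11890 CPM in β-NMN cells, with 3 of 6 higher. Neutrophil genes summed to 105 to 299.7 CPM in vehicle and 10.2 to 36.2 CPM in β-NMN cells, with 4 of the 5 tested lower. Within the β-NMN group, the library with the most Chil1 (replicate 5, 7.50 CPM) also had the highest neutrophil sum, 36.2 CPM. Fibroblast genes summed to 89.6 to 956 CPM in vehicle and 19.8 to 85.7 CPM in β-NMN cells, with all 4 lower. The part of these cells in the Chil1, Trem2 and other responses was not tested.

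**Figure D2:**
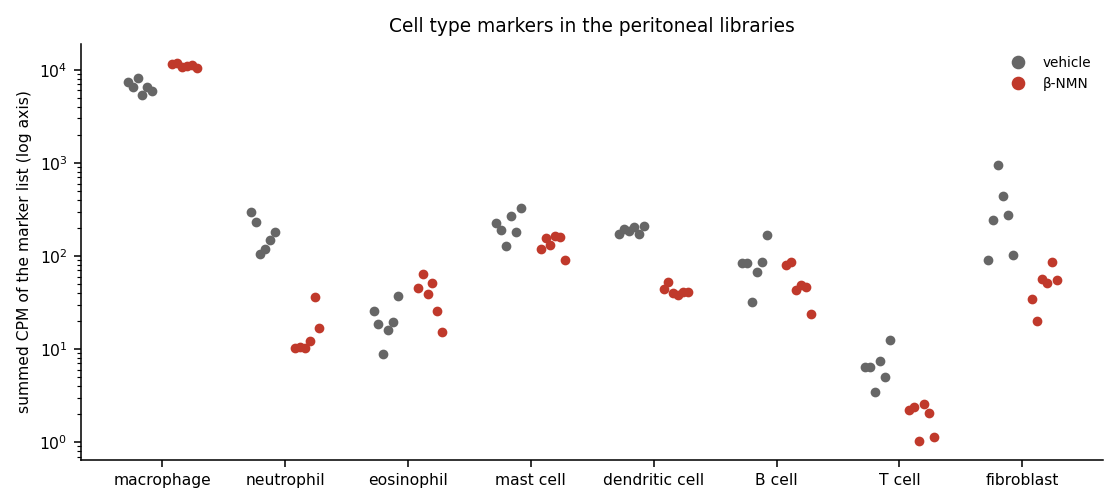
The summed CPM of 8 marker lists (log axis) is plotted for each of the 12 peritoneal libraries, vehicle in grey and β-NMN in red. Macrophage sums are higher and neutrophil, dendritic, T cell and fibroblast sums lower in the β-NMN libraries without overlap, whereas eosinophil, mast cell and B cell sums overlap.

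The order of the 10 genes within peritoneal cells also differed between treatments. Levels per kilobase of exon allow genes to be set side by side. In vehicle cells Chil1 led with 101 ± 24.1 CPM per kilobase, above Chil3 (53.2 ± 21.2), Il4ra (48.8 ± 6.01), Klf4 (42.2 ± 6.38) and Trem2 (33.6 ± 8.80). Retnla, Pparg and Ccl24 followed at 5.56 ± 2.07, 2.09 ± 0.36 and 2.06 ± 0.88. In β-NMN cells Trem2 led with 82.8 (range 67.7 to 96.4), before Chil3 (54.6 ± 15.6), Il4ra (32.7 ± 4.50), Retnla (28.7 ± 21.7) and Klf4 (26.6 ± 11.5). Chil1 stood eighth at 1.09 ± 0.83 CPM per kilobase (SD, n = 6 throughout). Neighbours from Chil3 to Trem2 in vehicle cells, and from Il4ra to Klf4 in β-NMN cells, lay within each other's spread.

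Over the 12 peritoneal libraries, taken as deviations from their group means of log2 CPM, the 36 pairs of genes had correlations from −0.70 (Il4ra and Mgl2) to 0.73 (Pparg and Trem2). The genes most like Retnla by this measure were Pygl (r = 0.96), Mfng (r = 0.95) and Cyp4f18 (r = 0.94). Of these 3, Cyp4f18 fell by 0.83 on the log2 scale (SE 0.19, adjusted p = 0.00237, edgeR), and Pygl and Mfng were not called, with log2 fold changes of 0.38 and −0.39. The genes most like Chil3 were Mbip, Elavl1 and Msr1, each with r = 0.88, and none of them was called. These correlations share libraries, depth and scaling, and are descriptions.

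The other genes of the same pathways were then examined in peritoneal cells. Of 13 tested genes of IL-4 and IL-13 signalling, 1 rose and 5 fell, with a median log2 fold change of −0.33, where 23.7% of all 14985 genes rose and 27.9% fell. The 6 calls are thus near the 51.6% of all genes called. Irs2, an adaptor that IL-4 receptors phosphorylate, fell from 107 ± 27.5 to 15.7 ± 1.60 CPM (log2 fold change −2.78, SE 0.16, adjusted p = 1.14e-08). Cish, a feedback inhibitor of cytokine receptors, fell by 0.85 on the log2 scale (SE 0.14), and Il2rg, the common γ chain that pairs with Il4ra, by 0.46 (SE 0.08). Il4 transcripts stood at 1.66 ± 0.89 CPM in vehicle and 1.61 ± 0.76 CPM in β-NMN cells.

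Of 21 tested genes from the wider alternative activation programme, 9 rose and 9 fell, with a median of −0.10, beside the same 23.7% and 27.9% of all genes. Kdm6b, a histone demethylase, fell from 675 ± 158 to 139 ± 52.8 CPM (log2 fold change −2.28, SE 0.22), and Fn1, fibronectin, fell by 1.45 (SE 0.16). Cd36, a scavenger receptor for oxidised lipids, rose from 566 ± 90.1 to 1227 ± 93.6 CPM (log2 fold change 1.12, SE 0.11).

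The list drawn up around Trem2 holds 13 genes: signalling partners, the relatives Trem1 and Treml2, and genes of lipid-handling macrophages. Of these, 9 rose and 2 fell, with a median of 0.76, beside 23.7% and 27.9% of all genes. Among the signalling partners Tyrobp (log2 fold change 0.76) and Hcst (0.40) rose, Plcg2 fell (−0.40) and Syk was not called (−0.08). Gpnmb, a glycoprotein of lipid-laden macrophages, rose from 6211 ± 1152 to 18672 ± 2373 CPM (log2 fold change 1.59, SE 0.14) and Lgals3, galectin-3, by 1.22 (SE 0.13). Trem1, the pro-inflammatory relative that shares the adaptor Tyrobp, fell from 31.1 ± 7.81 to 0.580 ± 0.463 CPM (log2 fold change −5.80, SE 0.36, adjusted p = 2.89e-08). Of 16 tested partners and targets of PPARγ, 5 rose and 6 fell, with a median of 0.06, where 23.7% and 27.9% of all genes did. Cd36 and Lpl, lipoprotein lipase (log2 fold change 1.40, SE 0.16), were among those that rose. Ppard, which encodes PPARδ, fell by 1.12 on the log2 scale (SE 0.11).

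None of the 8 relatives of Klf4 rose and 4 fell, with a median of −0.30, where 51.6% of all genes were called and 27.9% fell. Those that fell included Klf2 (log2 fold change −1.60, SE 0.14), Klf3 (−0.93, SE 0.14) and Klf13 (−0.55, SE 0.12). Of 5 tested relatives of the chitinase-like and resistin-like genes, 3 rose and 1 fell, with a median of 0.52, beside 23.7% and 27.9% of all genes. Those that rose were Chid1 (log2 fold change 0.83, SE 0.13), Ctbs, a lysosomal chitobiase (0.52, SE 0.11), and Retnlg, a resistin-like gene known from neutrophils (1.38, SE 0.40). The chitinases Chia1 and Chit1 were too low to be tested. Ccr3, the eotaxin receptor, rose from 11.3 ± 5.82 to 31.3 ± 13.4 CPM (log2 fold change 1.47, SE 0.36, adjusted p = 0.0033), while Ccl11 was too low. Every gene named here from these lists as having risen or fallen had an adjusted p below 0.05 in edgeR.

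**Figure D3:**
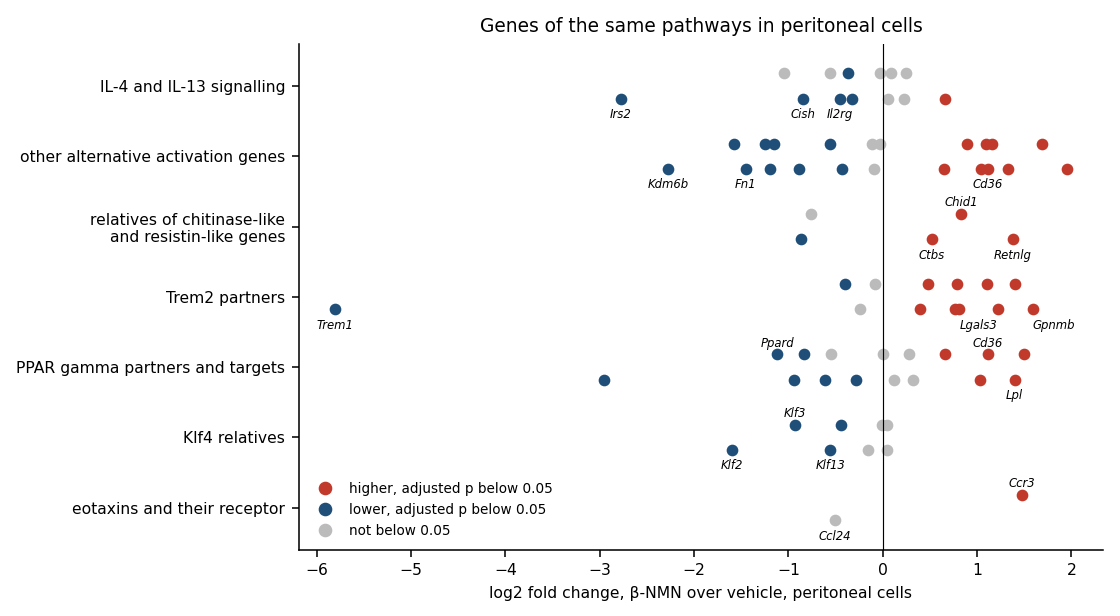
Each point is 1 tested gene of a pathway list in peritoneal cells, placed by its log2 fold change, β-NMN over vehicle, with red for higher, blue for lower and grey for genes that missed an adjusted p of 0.05. Trem1 lies farthest to the left at −5.80, and the other genes of its list lie mostly to the right of 0.

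The next comparison asked whether the same genes responded in the hearts of septic mice. No gene was called, 0% of 16245 (edgeR), although 1837 had an unadjusted p under 0.05, and DESeq2 called 267 and limma-voom 3. Of the 10 genes, Chil4 and Ccl24 were too low to be tested. The groups did not overlap for 3 of the 8 tested, Chil3, Il4ra and Pparg, against 23.1% of all genes. With 3 mice per group the smallest exact permutation p is 0.1. Over these 8 genes the median was −1.46 on the log2 scale, beside −0.01 over all genes tested, and it was −0.53 without vehicle replicate 2.

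Chil1 in hearts was 63.8, 102 and 2.44 CPM in vehicle replicates 1 to 3 and 5.85, 13.7 and 0.574 CPM in β-NMN replicates 1 to 3. The third mouse of each group was far below the others, and the groups overlapped. Its log2 fold change was −3.07 (SE 1.39, adjusted p = 0.436, edgeR), and ran from −4.19 without β-NMN replicate 2 to −2.33 without vehicle replicate 2. Chil3 was 2.01, 6.85 and 3.67 CPM in vehicle hearts and 1.19, 1.13 and 1.32 CPM in β-NMN hearts. Each β-NMN heart lay below each vehicle heart, and the log2 fold change was −1.78 (SE 0.45, adjusted p = 0.435, edgeR). DESeq2 gave Chil3 an adjusted p of 0.0148, and without vehicle replicate 2 its log2 fold change in edgeR was −1.22.

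Il4ra was 73.5, 156 and 62.7 CPM in vehicle hearts and 41.7, 32.9 and 49.7 CPM in β-NMN hearts, again without overlap. Its log2 fold change was −1.23 (SE 0.36, adjusted p = 0.435, edgeR) and −0.72 without vehicle replicate 2. Retnla, at 0.279 to 3.56 CPM, had a log2 fold change of −1.69 (SE 0.65), or −1.05 without vehicle replicate 2, and overlapping groups. Pparg was 14.6, 6.68 and 13.5 CPM in vehicle hearts and 15.2, 17.4 and 18.2 CPM in β-NMN hearts, a log2 fold change of 0.55 (SE 0.29). The low vehicle value was that of replicate 2, without which the log2 fold change was 0.27. Trem2 shows the weight of the same mouse. It was 4.97 CPM in vehicle replicate 2 and 0.484 to 0.729 CPM in the other 5 hearts, and its log2 fold change of −1.81 became −0.21 without that mouse. With all hearts, Mgl2 (0.33, SE 0.37) and Klf4 (−0.22, SE 0.15) had the smallest log2 fold changes in size. Without vehicle replicate 2 that of Klf4 was −0.33, no longer among the smallest.

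Neutrophil genes summed to 17.4 to 34.1 CPM in vehicle hearts and 11.6 to 13.9 CPM in β-NMN hearts, and none of the 6 tested was called. Of the 14 marker lists, the sums of 5 did not overlap between treatments in hearts. Cardiomyocyte genes (27980 to 44040 CPM in vehicle, 46100 to 50040 CPM in β-NMN hearts) and the alveolar macrophage list (45.4 to 69.5 and 71.4 to 85.1 CPM) were higher with β-NMN. The neutrophil, alveolar type 2 and resident peritoneal macrophage lists were lower. Car4 made most of the alveolar macrophage sum (means 49.9 CPM in vehicle, 70.0 CPM in β-NMN hearts), while Marco was 8.81 and 5.39 CPM. Abca3 (30.8 and 26.4 CPM) made most of the alveolar type 2 sum. Gata6 (94.5 and 88.5 CPM) and Selp (39.1 and 3.30 CPM) made most of the resident peritoneal macrophage sum. These sums therefore do not show that such cells were present in hearts. The part of any cell type in the heart values was not tested. No gene of the pathway lists was called in hearts or in lungs.

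**Figure D4:**
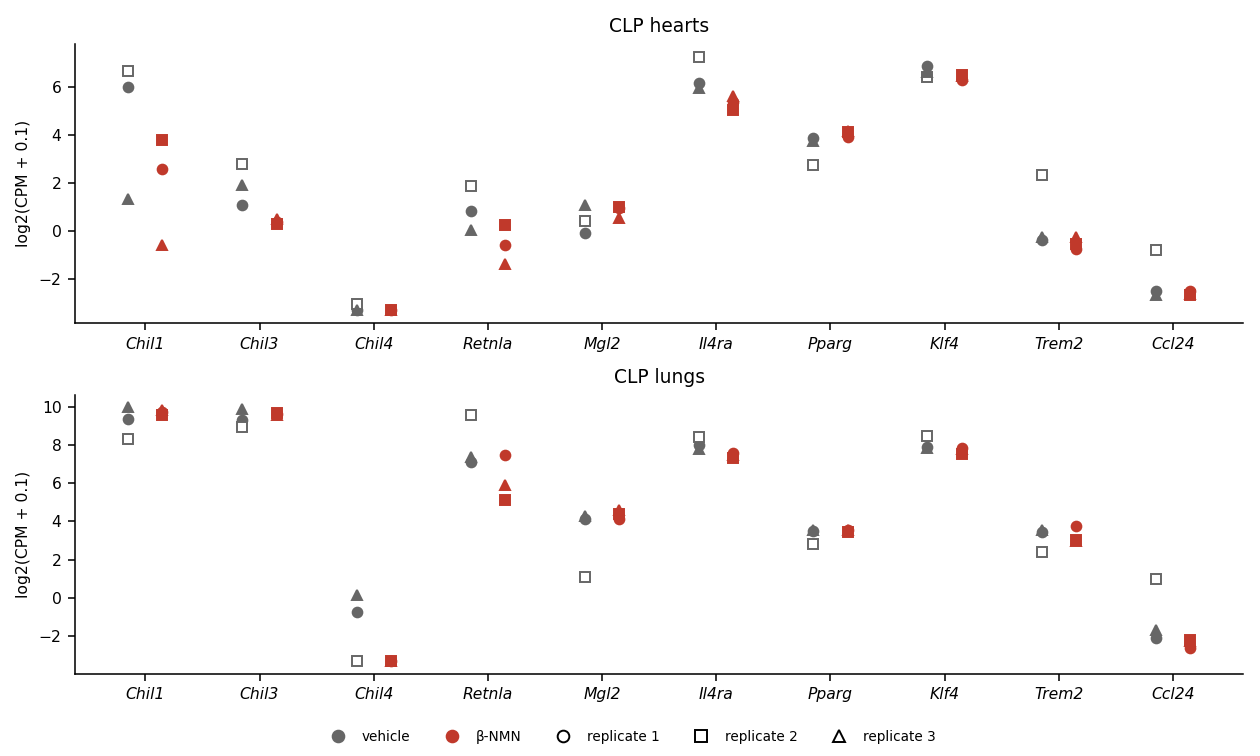
The 10 genes are plotted as log2(CPM + 0.1) for every CLP heart (top) and lung (bottom), with vehicle in grey, β-NMN in red, and 1 symbol shape per replicate number. Open squares are vehicle replicate 2, which holds the highest Trem2, Il4ra and Chil3 values of the hearts and the lowest Mgl2 value of the lungs.

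In lungs of the same mice no gene was called either, 0% of 17008 (edgeR), with 301 at an unadjusted p under 0.05, and DESeq2 and limma-voom each called 7. Of the 10 genes 8 were tested, and the groups did not overlap for 2 of them, Il4ra and Klf4, against 8.21% of all genes. Their log2 fold changes had a median of 0.12, beside 0.000575 over all genes, and of −0.0896 without vehicle replicate 2. Chil1 and Chil3 were abundant in lungs. Chil1 was 664, 320 and 1016 CPM in vehicle lungs and 850, 764 and 918 CPM in β-NMN lungs (log2 fold change 0.34, SE 0.43). Chil3 was 636, 490 and 968 CPM in vehicle lungs and 794, 825 and 765 CPM in β-NMN lungs (0.19, SE 0.32). For both, the β-NMN lungs lay inside the vehicle range, and the intervals were −0.50 to 1.18 and −0.44 to 0.81. Without vehicle replicate 2 the log2 fold changes were 0.0088 for Chil1 and −0.013 for Chil3.

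Retnla in lungs was 139, 765 and 164 CPM in vehicle and 179, 35.2 and 60.4 CPM in β-NMN mice. Vehicle replicate 2 was the highest by far, and β-NMN replicate 1 lay above the 2 other vehicle lungs. Its log2 fold change of −1.96 (SE 0.87, adjusted p = 0.969, edgeR) became −0.73 when vehicle replicate 2 was left out, and −2.89 when β-NMN replicate 1 was. Il4ra was 262, 344 and 224 CPM in vehicle lungs and 190, 162 and 182 CPM in β-NMN lungs. All β-NMN lungs lay below the vehicle lungs, and its log2 fold change was −0.63 (SE 0.26, adjusted p = 0.969) and −0.45 without vehicle replicate 2.

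Klf4 was 238, 353 and 235 CPM in vehicle lungs and 229, 183 and 224 CPM in β-NMN lungs, groups that stood apart by a narrow margin (log2 fold change −0.38, SE 0.27, and −0.16 without vehicle replicate 2). Mgl2 was 17.2, 2.02 and 19.7 CPM in vehicle lungs and 17.6, 20.8 and 23.8 CPM in β-NMN lungs, so that the log2 fold change of 0.66 (SE 0.68) was 0.17 without vehicle replicate 2. Pparg (0.17, SE 0.29) and Trem2 (0.06, SE 0.41) overlapped between groups, and both were below 0 without vehicle replicate 2 (−0.023 and −0.22). Chil4 had 15, 0 and 24 reads in vehicle lungs and 0 in each β-NMN lung, where 3 reads would be 0.11 to 0.183 CPM. Ccl24 had 4 to 13 reads in vehicle lungs and 1 to 3 in β-NMN lungs.

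Of the 14 marker lists, the sums of 2 did not overlap between treatments in lungs. Macrophage genes summed to 3942, 1211 and 4249 CPM in vehicle lungs, with vehicle replicate 2 lowest. In β-NMN lungs they summed to 5428, 5125 and 4966 CPM. Lyz2 made most of the macrophage sum (means 2888 CPM in vehicle, 4885 CPM in β-NMN lungs). Its groups did not overlap, whereas those of every other gene of the list did. Log2 fold changes were 0.76 for Lyz2, 0.51 for Adgre1, 0.45 for Csf1r, 0.09 for Mertk, −0.02 for Cd68 and −0.30 for Fcgr1. The separation of the sums therefore does not describe the macrophage list as a whole. Cardiomyocyte genes were at 229.5 to 317.8 CPM in vehicle and 66.6 to 227 CPM in β-NMN lungs. No gene of these lists was called, and their part in the Il4ra, Klf4 and other lung values was not tested.

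**Figure D5:**
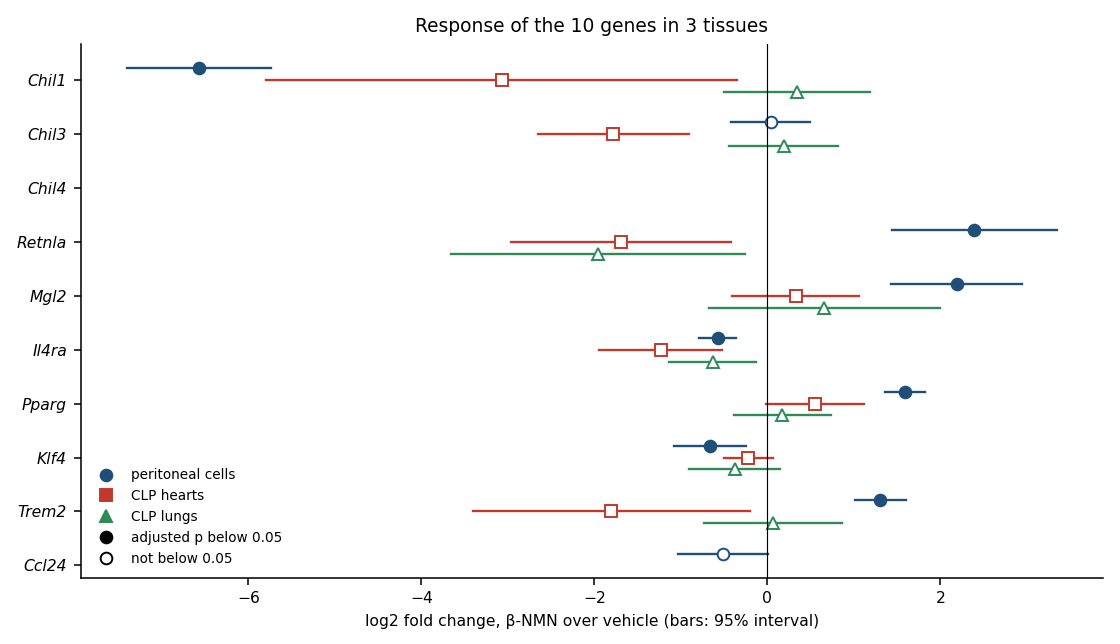
The log2 fold change of each tested gene, β-NMN over vehicle, is plotted for peritoneal cells (circles), CLP hearts (squares) and CLP lungs (triangles), with bars for the 95% interval. Filled symbols passed an adjusted p of 0.05, which 7 genes did in peritoneal cells and none did in the organs. Chil4 was not tested, and Ccl24 was tested in peritoneal cells only.

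Set side by side, Il4ra had a negative log2 fold change in peritoneal cells, hearts and lungs (−0.57, −1.23 and −0.63), as had Klf4 (−0.67, −0.22 and −0.38), and Pparg a positive one (1.59, 0.55 and 0.17), the last of which was −0.023 without vehicle replicate 2. Retnla was 2.39 in peritoneal cells and −1.69 and −1.96 in the organs. The peritoneal cells and the organs came from separate experiments and count tables, and differences between them were not tested. Between the organs, the difference of the β-NMN effect was tested as an interaction over the 12 CLP libraries. No gene was called, 0% of 18318 (edgeR), with 797 at an unadjusted p under 0.05 and 7 called by DESeq2. Chil3 had the smallest p of the 8 genes, with a lung effect 1.96 higher than the heart effect on the log2 scale (SE 0.55, adjusted p = 0.96), and 1.15 higher without vehicle replicate 2. For Chil1 the difference was 3.39 (SE 1.53, adjusted p = 0.96), which ran from 2.30 without vehicle replicate 2 to 4.56 without β-NMN replicate 2.

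The organs themselves differed in all 8 tested genes, where 64.8% of 18318 genes were called. Of them 7 were higher in lung, against 35.9% of all genes, and Pparg was lower, against 28.9%. Scaled over the 12 CLP libraries, Chil3 stood at 553 ± 215 CPM in vehicle lungs and 5.24 ± 3.02 CPM in vehicle hearts. Its log2 difference was 7.70 (SE 0.36, adjusted p = 1.2e-08, edgeR). The 6 alveolar macrophage markers, each scaled within its organ, summed to 207 to 321 CPM in lungs and 45.4 to 85.1 CPM in hearts. Most of the heart sum was Car4, and Siglecf, Krt79 and Ear1 were too low to be tested in hearts. The part of these cells in the Chil3 values was not tested. Retnla followed with 269 ± 253 against 2.58 ± 1.67 CPM (log2 difference 6.58, SE 0.68), and Chil1 with 532 ± 294 against 70.7 ± 62.9 CPM (4.61, SE 0.86). Without vehicle replicate 2 these log2 differences were 7.99 for Chil3, 6.21 for Retnla and 5.03 for Chil1.

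Mgl2 (2.80, SE 0.46), Trem2 (2.40, SE 0.50), Il4ra (1.12, SE 0.22) and Klf4 (0.68, SE 0.15) were higher in lung by smaller log2 differences, and without vehicle replicate 2 that of Klf4 was 0.43 and that of Trem2 was 3.22. Pparg was 7.94 ± 2.48 CPM in vehicle lungs and 14.7 ± 5.56 CPM in vehicle hearts, a log2 difference of −1.06 (SE 0.22, adjusted p = 0.00125, edgeR). The 8 calls held when each mouse was left out in turn and when the mouse was entered as a block. Per kilobase of exon, Klf4 was the leading gene of the hearts at 33.3 ± 5.15 CPM in vehicle mice, where Chil1 (range 0.872 to 36.5) and Il4ra (16.2 ± 8.52) came next. Without vehicle replicate 2 Klf4 averaged 35.8, Chil1 11.8 and Il4ra 11.3 CPM per kilobase. In vehicle lungs Retnla (595 ± 592), Chil3 (428 ± 150) and Chil1 (238 ± 124) led, also within each other's spread. Without vehicle replicate 2 the order was Chil3 (491), Chil1 (299.6) and Retnla (253). In β-NMN lungs Chil3 (487 ± 18.2) led Chil1 (301 ± 27.6) and Retnla (153 ± 128; SD, n = 3 throughout).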

How the data were processed

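Poly(A) RNA was sequenced on a NovaSeq. The authors deposited raw read counts per gene symbol in 2 tables (12 peritoneal and 12 CLP libraries). The submitters' processing notes name STAR 2.7.3a, mm10 and featureCounts 2.0.0, and neither these nor the methods give the strand setting. The 10 genes and all lists were chosen with earlier results of these data known.

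Each tissue was fitted alone in edgeR 4.0.16 (R 4.3.3) with filterByExpr, TMM factors and the quasi-likelihood F-test, with Benjamini-Hochberg adjustment over all genes tested. The organs were compared in 1 fit of the 12 CLP libraries. Single genes were also given an exact two-sided permutation test of mean log2 CPM (prior count 2). SE is the log2 fold change divided by the square root of F, and 95% intervals come from it. Lengths and positions come from GENCODE M21. The scripts were tested on simulated data. Alternatives used DESeq2 1.42.0, limma 3.58.1, other size factors, no filter, blocks and fewer libraries. Total counts per library (given with the results) limit the precision of low genes. The p-values within a tissue set the difference between treatments against the spread between mice. The main fit of the 12 CLP libraries took heart and lung of a mouse as independent, and the mouse entered only as an alternative.

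Named from each pathway list were up to 3 genes with the smallest p in peritoneal cells, and for Retnla and Chil3 the 3 genes most correlated with them. Clec10a, Il4, Tyrobp, Hcst, Plcg2, Syk and single marker genes were named after their values were seen. Marker lists of B and T cells, resident peritoneal macrophages, mast cells, endothelium and airway cells were also summed.

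The β-NMN heart of mouse B17 carries the replicate number of another heart and was numbered 2 after its lung. The source label of the organs names thioglycollate, whereas title and tissue name CLP, which was followed. Nothing says that numbers pair mice across treatments. Heart and lung of a mouse are paired by the labels, and their deviations correlated at r = 0.0638 to 0.171.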

Additional observations from a re-analysis of the deposited data

Results flagged for a closer look

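Of 68 groups of 6 peritoneal libraries examined for the named genes, 7 held 1 library far from the other 5, where chance gives about 1 in 20 groups. Chil3 was 153 CPM in vehicle replicate 1 and 58.3 to 91.8 CPM in the other vehicle libraries, and Mbip, a gene chosen for varying like Chil3, was 4.74 CPM there and 3.34 to 3.85 CPM in the others. That library also had the highest neutrophil sum of the vehicle group, 299.7 CPM, while replicate 2, the next at 229.5 CPM, held 78.9 CPM of Chil3. Without vehicle replicate 1 the log2 fold change of Chil3 was 0.30 (adjusted p = 0.192, edgeR). Vehicle replicate 3 held 248 CPM of Trem2, against 125 to 169 CPM in the others, and 885 CPM of Lpl, against 427 to 571 CPM. It also had the highest fibroblast and macrophage sums of the vehicle group, 956 and 8225 CPM. The log2 fold change of Trem2 without it was 1.49. β-NMN replicate 6 held 117 CPM of Klf13, against 74.8 to 84.0 CPM, and 244 CPM of Kdm6b, against 97.7 to 135 CPM, and was the library with the highest Klf4 and the lowest Retnla of its group. Trem1 was 1.48 CPM in β-NMN replicate 5 and 0.159 to 0.558 CPM in the others. The causes were not tested.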

How the results depend on the processing

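In peritoneal cells all 7 calls among the 10 genes held with other size factors, no filter, DESeq2, limma-voom, the newer quasi-likelihood form and without any 1 library. With the replicate block 7010 genes were called in place of 7733, and the 7 calls held. Same-numbered deviations of the 2 treatments correlated at r = −0.169 to 0.132 in peritoneal cells, 0.0735 to 0.241 in hearts and −0.518 to 0.304 in lungs. Heart and lung of the same mouse gave only 0.0638 to 0.171. Such values therefore cannot tell whether numbers pair the treatments. With the block, no gene was called in hearts or lungs (0), as without it. Without 1 library 7132 to 8049 genes were called. Chosen after the depths were seen, the fit of the 7 shallower libraries called 4244 genes and 6 of the 10 genes, losing Retnla (1.43) and Klf4 (−0.49) and gaining Ccl24 (−0.89), while that of the 5 deeper ones called 5717 and 7, with Ccl24 at 0.071. Fewer samples enter these fits. Chil3 changed sign under limma-voom (−0.0091), in the shallower (−0.039) and deeper libraries (−0.022) and without 1 library (−0.056 to 0.30).

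In hearts, no filter called 3 genes, limma-voom 3, DESeq2 267 with 1 of the 10 genes, Chil3, and 0 to 5 were called without 1 library (5 without vehicle replicate 2). In lungs DESeq2 and limma-voom called 7 each. Trem2 in lungs was −0.42 under limma-voom. Without 1 library it ran from −0.25 to 0.26, Chil3 in lungs from −0.013 to 0.52 and Pparg from −0.023 to 0.32. For the lung effect minus the heart effect, no filter called 2 genes and DESeq2 7, and without 1 mouse Retnla ran from −1.18 to 0.86, Mgl2 from −0.15 to 0.80, Klf4 from −0.32 to 0.15 and Trem2 from −0.053 to 2.45. The causes were not tested. Genes called between organs numbered 10341 to 14026 without 1 mouse and 11408 with the mouse as a block. Low counts left Chil4 untested in every tissue and Ccl24 untested in hearts and lungs. The median over the 8 genes tested, computed without vehicle replicate 2 after the data were seen, moved from −1.46 to −0.53 in hearts and from 0.12 to −0.0896 in lungs. With the longest transcript as length, Chil1 and Ccl24 exchanged places in β-NMN peritoneal cells.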
